A study of Mus musculus with 6 samples.

Results

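The G1 cyclins, their kinases and the retinoblastoma family were followed here in mouse thymic lymphomas with floxed or wild-type Notch1. The set held 10 genes: the D-type cyclins Ccnd1, Ccnd2 and Ccnd3, the kinases Cdk4 and Cdk6, the E-type cyclins Ccne1 and Ccne2, and the pocket protein genes Rb1, Rbl1 and Rbl2. Members were all probe sets whose platform gene symbol is exactly one of these names, which gave 30 of the 45101 probe sets of the array. A probe set is a group of short probes that reads the 3' part of a transcript, and several can read the same gene, so probe sets of a gene are not replicates.

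All mice were IkL/L, with a hypomorphic allele of the Ikaros gene, and carried CD4-Cre, a recombinase driven in developing T cells. The 3 Notch1f/f tumours, with Notch1 floxed on both alleles, came from animals 8 to 10 weeks old, and the labels name a deletion of promoter and first-exon sequence. The 3 Notch1+/+ tumours, with wild-type Notch1, came from animals 18 to 20 weeks old. Age and genotype therefore cannot be told apart. Each tumour came from its own mouse, was not sorted, and was read on 1 array, so in every result fewer cells of a type and less RNA per cell cannot be told apart.

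In G1 phase, D-type cyclins pair with Cdk4 or Cdk6 and E-type cyclins pair with Cdk2, and both kinds of complex phosphorylate the pocket proteins pRb, p107 and p130. Unphosphorylated pocket proteins hold E2F factors in check, and their release lets S phase genes be transcribed. In thymocytes cyclin D3 is the D-type cyclin needed for the expansion that follows pre-T cell receptor signalling, and Notch signalling is known to induce Ccnd3 and Cdk6 expression in T cell leukaemia.

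T lineage markers were present in every thymic tumour. All 16 measured T lineage markers were tested, with a summed intensity of 29420 to 35073 in Notch1f/f tumours and 26608 to 27864 in Notch1+/+ tumours. Markers of other cells differed between groups too. The sum of 13 macrophage markers was 2285 to 5541 in Notch1f/f tumours against 416 to 1451 in Notch1+/+ tumours, and that of 11 B cell markers 168 to 429 against 115 to 119. The B cell sum was 429 in Notch1f/f tumour 3 alone, and 168 and 190 in Notch1f/f tumours 1 and 2. Of the 11 B cell markers, 6 were bright enough to be tested. The groups overlapped for Ms4a1, Cd22, Blnk and Bank1, and did not for Cd79a and Cd79b. The sum of 8 neutrophil markers was 181 to 234 in Notch1f/f tumours against 250 to 373 in Notch1+/+ tumours. Sums of 10 endothelial, 11 thymic epithelial and 5 erythroid markers overlapped, at 305 to 319, 142 to 194 and 35.6 to 89.9 in Notch1f/f tumours against 223 to 401, 110 to 231 and 61.8 to 76.0 in Notch1+/+ tumours. For the targeted gene there were 2 probe sets. Notch1 had intensities of 3294, 3043 and 3419 in Notch1f/f tumours against 3637, 2532 and 2838 in Notch1+/+ tumours on the first, and 2026, 1346 and 2212 against 1793, 656 and 568 on the other. These probe sets read the 3' part of the transcript and do not check the deletion.

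Intensities are MAS5 signals in arbitrary units. Differences between groups were taken after log2(intensity + 16), a transform that makes folds of dim genes look smaller than they are. Of the 30 member probe sets, 26 passed the filter on dim values and were tested, and all 10 genes kept at least 1. The other 4, a pair each of Ccnd2 and Rbl1, reached at most 11.6 in any tumour. None of the 26 passed an adjusted p of 0.05 in limma, where 0.0185% of all 27022 tested probe sets did. Their adjusted p-values ran from 0.119 to 0.983. Before adjustment, 5 of the 26 had p under 0.05, against 13.5% of all tested probe sets. Of these, 4 were lower in Notch1f/f tumours, against 7.6% of all, and 1 was higher, against 5.94%. Leaving out Notch1+/+ tumour 1 made that count 10, and leaving out Notch1f/f tumour 2 made it 8. It was 3 without either Notch1+/+ tumour 3 or Notch1f/f tumour 3. The share over all probe sets was not taken in these refits. The 2 groups did not overlap in 4 of the 26, against 18.6% of all. In 3 of these Notch1f/f tumours were lower, against 10.4% of all, and in 1 they were higher, against 8.13%. The 3 lower ones all read Ccnd1, so they are 1 gene seen 3 times. The median log2 difference was -0.20 over the 26 probe sets and -0.04 over all tested probe sets.

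**Figure D1:**
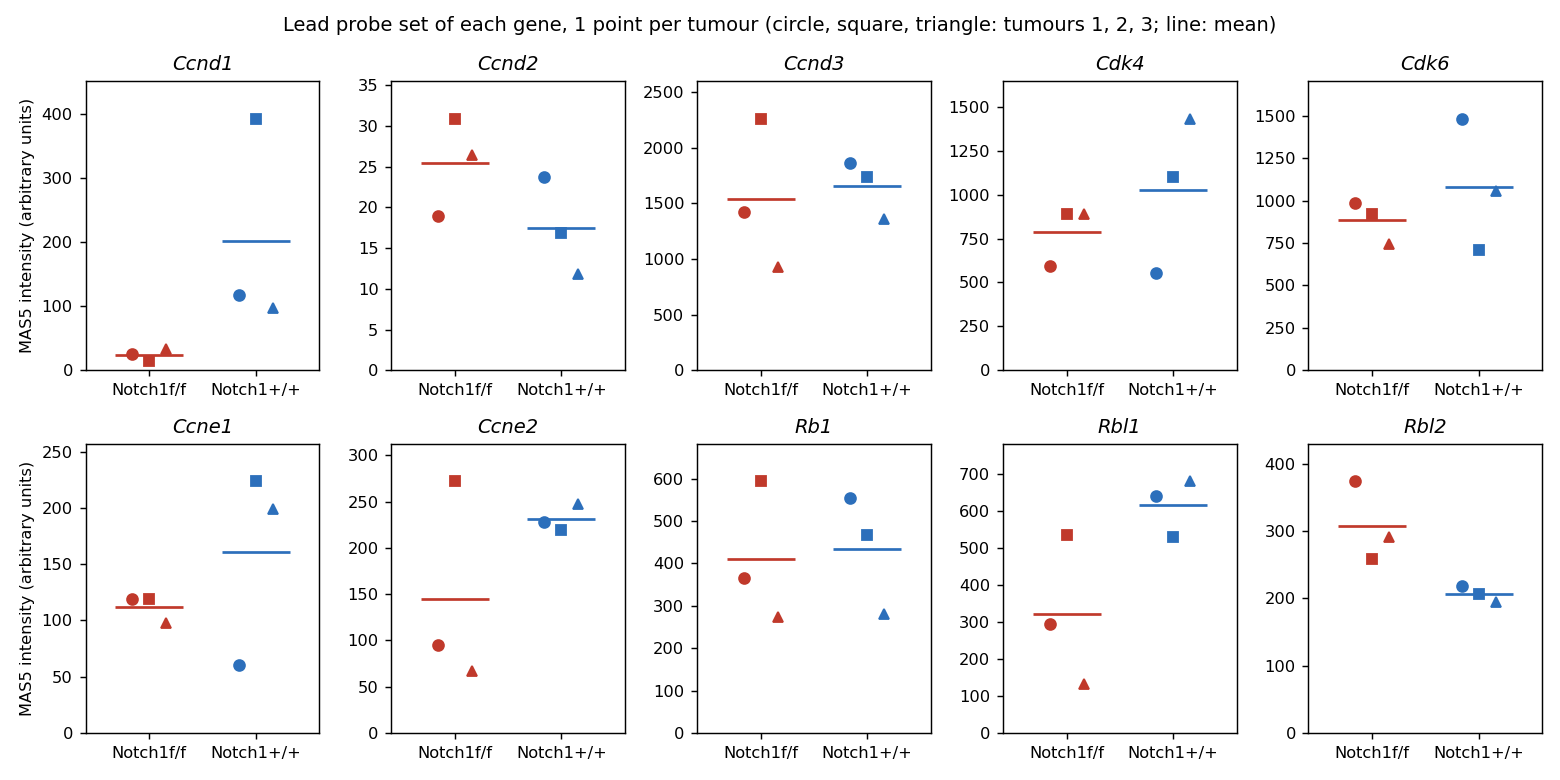
MAS5 intensity of the lead probe set of each gene (the one with the highest mean log2 value), 1 point per tumour, with Notch1f/f left and Notch1+/+ right and a line at the mean of 3. Ccnd1 is lower in all 3 Notch1f/f tumours and Rbl2 higher, while the groups overlap for the other 8 genes.

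Ccnd1, which encodes cyclin D1, showed the widest separation among the 10 genes. On its lead probe set, 1417420_at, it had intensities of 24.8, 15.1 and 32.4 in Notch1f/f tumours against 117.6, 392.8 and 96.8 in Notch1+/+ tumours. The highest Notch1f/f tumour lay below the lowest Notch1+/+ tumour, and Notch1+/+ tumour 2 stood well above the rest. The log2 difference was -2.22 ± 0.46 (SE), or 4.65-fold lower, with a limma adjusted p of 0.183. The probe set 1448698_at gave the same order of groups, at 13.5, 19.8 and 37.2 against 105.6, 280.8 and 101.6, with a log2 difference of -2.08 ± 0.40 (limma adjusted p = 0.149). The dimmest, 1417419_at, had 1.7, 13.2 and 4.8 against 58.3, 193.6 and 71.8, with a log2 difference of -2.33 ± 0.40 (limma adjusted p = 0.119). Its Notch1f/f mean of 6.57 lay under the filter intensity of 7.60, so it was tested only through its Notch1+/+ values. By unadjusted p these probe sets ranked 131, 93 and 48 among the 27022 tested. The exact two-sided permutation p was 0.1 for each, the smallest that 3 tumours against 3 allow.

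The size of the Ccnd1 difference depended on the pseudocount and on 1 tumour. For the lead probe set it was -2.79 and -1.43 on the log2 scale with a pseudocount of 1 and 64, and -1.64 without Notch1+/+ tumour 2 (limma adjusted p = 0.302). Fibroblast markers differed among the tumours as well. Col1a2, a chain of type I collagen, had 13.2, 39.8 and 71.3 in Notch1f/f tumours against 190.1, 977.6 and 53.3 in Notch1+/+ tumours, with Notch1+/+ tumour 2 the highest, as for Ccnd1. Col1a1, the other chain, had 11.6, 1.4 and 0.7 against 1.6, 42.7 and 31.6, and Col3a1, type III collagen, had 14.7, 27.6 and 9.0 against 4.5, 200.5 and 164.1. Notch1+/+ tumour 1 was the second highest on the Ccnd1 lead probe set. It was also the second highest for Col1a2 and for the sum of fibroblast markers that follows. On Ccnd1 1417419_at, however, it lay below Notch1+/+ tumour 3, at 58.3 against 71.8. For Col3a1 it was the lowest of the 6, and for Col1a1 near the bottom. The 9 fibroblast markers as a whole summed to 1088, 1416 and 2337 in Notch1f/f tumours against 2428, 3120 and 1979 in Notch1+/+ tumours, with 1 of the 8 tested above 0 and 7 below. Pdgfra, a defining fibroblast receptor, reached at most 13.4 in any tumour, and Lum at most 13.6. Pdgfrb made up a large share of each sum, at 813, 1029 and 1827 in Notch1f/f tumours against 1976, 1282 and 1103 in Notch1+/+ tumours. The part of fibroblasts in the Ccnd1 difference was not tested.

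Ccnd2 was dim in every tumour. Of its 7 probe sets, 5 were tested and all had differences above 0, with limma adjusted p-values from 0.560 to 0.983. Among these, 1448229_s_at had a Notch1+/+ mean of 6.8, under the filter intensity of 7.60. It was thus tested only through its Notch1f/f values, which bears on the sign of its difference. The Ccnd2 lead probe set, 1416122_at, had 18.9, 30.9 and 26.5 in Notch1f/f tumours against 23.8, 16.9 and 11.8 in Notch1+/+ tumours. The groups overlapped, and the log2 difference of 0.31 ± 0.23 had a 95% confidence interval from -0.20 to 0.82. No Ccnd2 probe set exceeded 31.9 in any tumour. Cyclin D2 is also made by B cells and macrophages, whose marker sums were higher in Notch1f/f tumours, with the limits given above. The part of these cells in the Ccnd2 signal was not tested.

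Ccnd3 gave strong signals whose probe sets disagreed in direction. The lead probe set, 1415907_at, had 1421, 2261 and 932 in Notch1f/f tumours against 1867, 1738 and 1364 in Notch1+/+ tumours. Notch1f/f tumours held both the highest and the lowest value, and the log2 difference was -0.18 ± 0.29 (limma adjusted p = 0.807). Probe set 1438805_at had 454, 239 and 440 against 319, 238 and 137, with a log2 difference of 0.69 ± 0.34 (limma adjusted p = 0.408). The remaining one, 1444323_at, differed by -0.21 ± 0.36. The 95% confidence interval of the lead probe set ran from -0.85 to 0.48, so that neither a moderate loss nor a moderate gain of Ccnd3 could be told from no difference. Without Notch1f/f tumour 3 its difference was 0.13, with the sign turned.

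The kinases that partner the D-type cyclins differed little between genotypes compared with their spread among tumours. Cdk4, read by 1422441_x_at, had 593, 889 and 889 in Notch1f/f tumours against 555, 1101 and 1433 in Notch1+/+ tumours. Tumour 1 of each group was the lowest of its group, and the Notch1+/+ tumours spanned the whole Notch1f/f range. The log2 difference was -0.30 ± 0.33, with a 95% confidence interval from -1.05 to 0.45, and the other Cdk4 probe sets gave -0.22 and -0.29. The suffix of the lead probe set marks a type whose probes can match other transcripts, but the pair without this suffix gave the same order of Notch1+/+ tumours. Cdk6, read by 1455287_at, had 990, 920 and 747 in Notch1f/f tumours against 1484, 710 and 1055 in Notch1+/+ tumours, a log2 difference of -0.23 ± 0.26 (95% confidence interval from -0.83 to 0.36). Its other probe sets differed by -0.13 and -0.23. All 6 probe sets of Cdk4 and Cdk6 were below 0, with limma adjusted p-values from 0.710 to 0.838.

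The Cdk4 promoter is shown because Myc, a known inducer of Cdk4, binds the E-box CACGTG, and this gene's upstream sequence holds several. The stretch of 180 bases before the annotated gene start comes from RefSeq (GRCm38.p6, chr10:127063355-127063534, plus strand), with each CACGTG in capitals.
Cdk4: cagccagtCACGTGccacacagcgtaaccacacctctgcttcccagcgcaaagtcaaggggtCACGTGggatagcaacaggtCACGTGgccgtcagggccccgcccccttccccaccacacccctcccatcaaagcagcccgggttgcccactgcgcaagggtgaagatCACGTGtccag
The motif, which reads the same on both strands, begins 172, 118, 98 and 11 bases before the start. At least 1 CACGTG was found in 7.15% of 32851 promoter entries of 300 bases, and 4 or more in 8 of them, or 0.0244%. Myc itself had 583, 945 and 419 in Notch1f/f tumours against 781, 667 and 1198 in Notch1+/+ tumours, and differed by -0.47 ± 0.32 on the log2 scale (limma adjusted p = 0.534). Notch1+/+ tumour 3 was the highest for both Cdk4 and Myc, and Notch1+/+ tumour 1, the lowest for Cdk4, had the third highest Myc value. The part of Myc in the Cdk4 values was not tested.

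The E-type cyclins, which activate Cdk2 at the entry to S phase, had lower means in Notch1f/f tumours without a separation of the groups. Ccne2 had 95.1, 271.9 and 66.8 in Notch1f/f tumours against 228.4, 219.2 and 247.9 in Notch1+/+ tumours. Notch1f/f tumours 1 and 3 lay below every Notch1+/+ tumour, and Notch1f/f tumour 2 was the highest of all 6. The log2 difference was -0.84 ± 0.41 (limma adjusted p = 0.401), and it was -1.37 without Notch1f/f tumour 2 (limma adjusted p = 0.0712) and -0.47 without Notch1f/f tumour 3. Ccne1, on 1441910_x_at, had 118.9, 118.8 and 97.5 against 60.8, 223.6 and 198.7. Here it was Notch1+/+ tumour 1 that stood apart from its group, below all 3 Notch1f/f tumours. Its log2 difference was -0.31 ± 0.41, and 1416492_at gave -0.47 ± 0.36 with the same tumour lowest among the Notch1+/+ tumours.

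**Figure D2:**
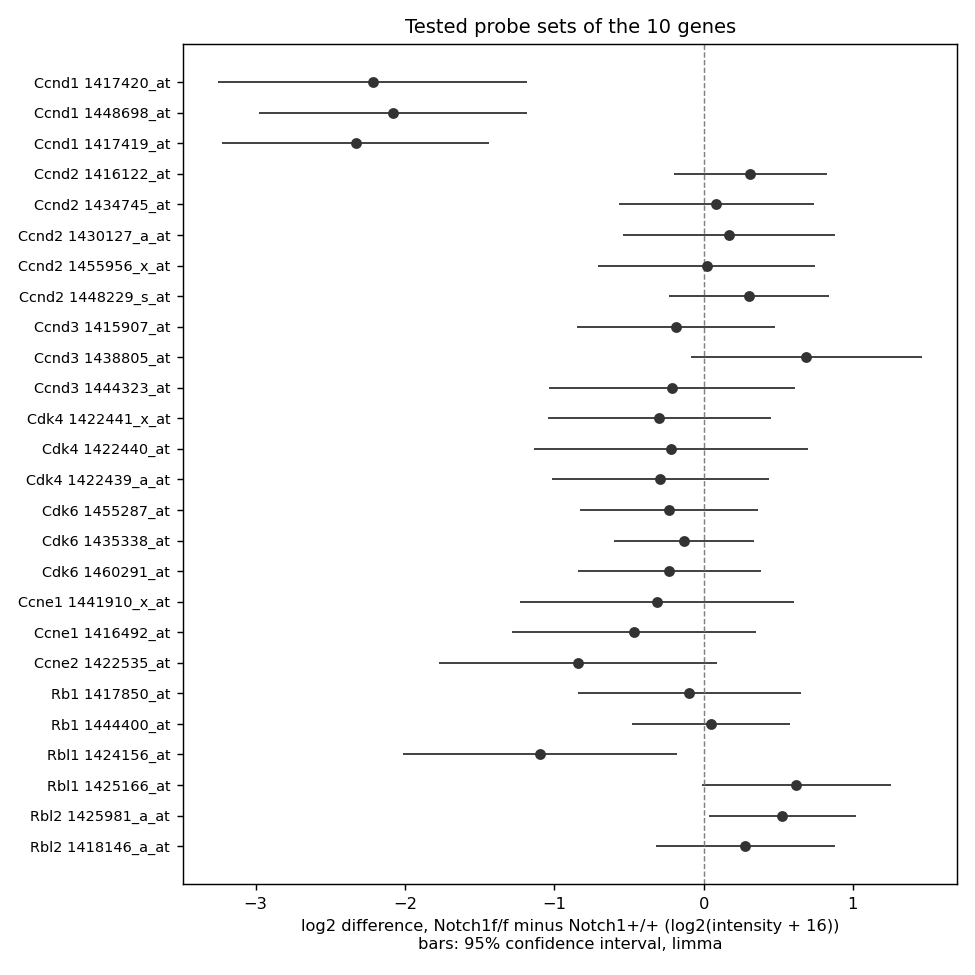
Log2 difference of each tested probe set, Notch1f/f minus Notch1+/+, on the log2(intensity + 16) scale, with 95% confidence intervals from limma. The 3 Ccnd1 probe sets lie near -2, those of Rbl1 lie on opposite sides of 0, and most of the others have intervals that include 0.

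Rb1, the gene of pRb, did not separate the genotypes. Its lead probe set, 1417850_at, had 366, 594 and 273 in Notch1f/f tumours against 555, 467 and 282 in Notch1+/+ tumours, a log2 difference of -0.10 ± 0.33 (95% confidence interval from -0.84 to 0.65). The groups covered nearly the same range. The second probe set was dim, at most 17.7 in any tumour, and differed by 0.05 ± 0.24.

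Rbl1, which encodes p107, gave 2 opposite readings. On the lead probe set, 1424156_at, it had 295, 535 and 133 in Notch1f/f tumours against 640, 529 and 680 in Notch1+/+ tumours. Notch1f/f tumours 1 and 3 were well below the Notch1+/+ tumours, while Notch1f/f tumour 2 lay among them. The log2 difference was -1.09 ± 0.41 (limma adjusted p = 0.315), and it was -1.54 without Notch1f/f tumour 2 (limma adjusted p = 0.0867) and -0.60 without Notch1f/f tumour 3. On 1425166_at it had 281, 207 and 386 in Notch1f/f tumours against 201, 208 and 135 in Notch1+/+ tumours, and differed by 0.62 ± 0.28 on the log2 scale (limma adjusted p = 0.373). Notch1f/f tumour 3 was the lowest tumour on the first probe set and the highest on the other, and Notch1+/+ tumour 3 was the reverse. Which forms of Rbl1 RNA each probe set reads was not tested. Averaged over both tested probe sets, the Rbl1 difference was -0.24 (limma unadjusted p = 0.245).

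Rbl2, which encodes p130, the pocket protein typical of resting cells, was higher in all 3 Notch1f/f tumours on its lead probe set. The values on 1425981_a_at were 374, 259 and 291 in Notch1f/f tumours against 219, 206 and 195 in Notch1+/+ tumours. The log2 difference was 0.53 ± 0.22, or 1.44-fold, with a limma adjusted p of 0.348 and an exact permutation p of 0.1. On 1418146_a_at the groups overlapped, at 144, 151 and 87.2 against 86.2, 110.3 and 103.6, with a log2 difference of 0.28 ± 0.27. Macrophage markers were also higher in Notch1f/f tumours, and their part in the Rbl2 signal was not tested.

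**Figure D3:**
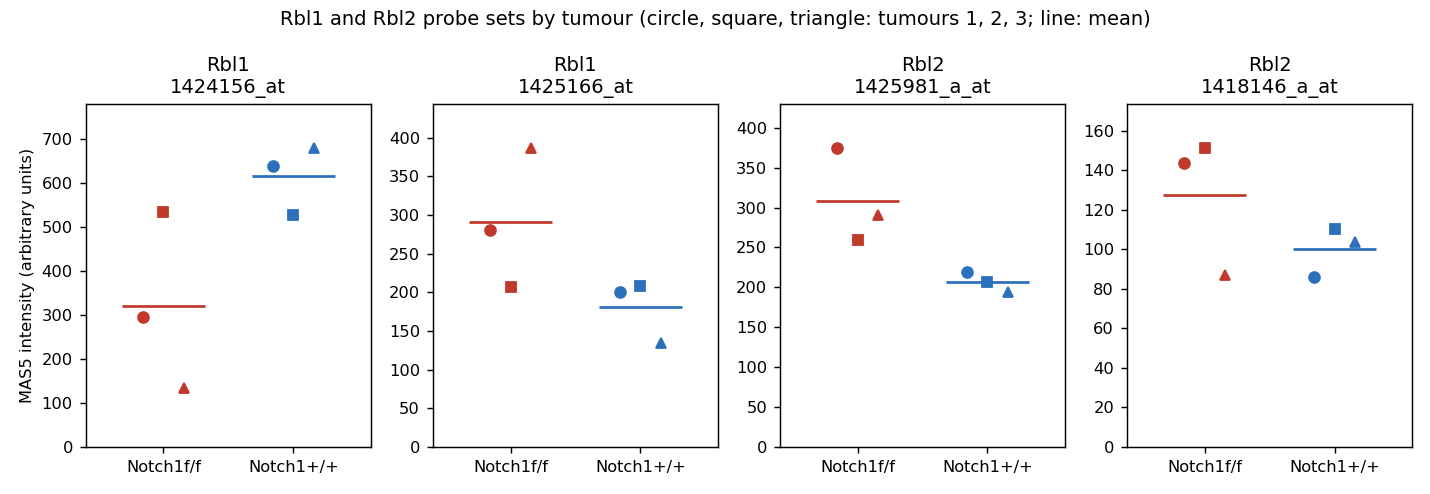
MAS5 intensity by tumour for the tested probe sets of Rbl1 and both of Rbl2, with Notch1f/f left and Notch1+/+ right and a line at the mean of 3. Notch1f/f tumour 3 (triangle) is lowest on Rbl1 1424156_at, at 133, and highest on Rbl1 1425166_at, at 386.

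Whether paralogs differed from each other in their response was asked within tumours, by subtracting the log2 value of 1 lead probe set from that of the other and comparing the groups over 4 pairs. Rbl1 minus Rbl2 was -0.12 ± 1.04 in Notch1f/f tumours and 1.5001 ± 0.22 in Notch1+/+ tumours (SD, n = 3 each), a difference of -1.62 with groups that did not overlap. Its exact permutation p was 0.1, the smallest possible, and 0.4 after adjustment over the 4 pairs. The choice of the Rbl1 lead probe set decides this value, since the other Rbl1 probe set differed in the direction of Rbl2. Ccnd2 minus Ccnd3 differed by 0.50 (exact permutation p = 0.2), Ccne1 minus Ccne2 by 0.53 (0.5) and Cdk6 minus Cdk4 by 0.06 (1.0), each with overlapping groups.

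The Rbl1 promoter is shown because E2F factors, which p107 restrains, are known to act on it. The 100 bases before the annotated gene start come from RefSeq (GRCm38.p6, chr2:157204535-157204634, minus strand), with the E2F motif in capitals.
Rbl1: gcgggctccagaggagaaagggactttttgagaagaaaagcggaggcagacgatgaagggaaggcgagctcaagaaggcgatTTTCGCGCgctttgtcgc
The motif TTTCGCGC begins 18 bases before the start. The search covered TTTCCCGC, TTTGGCGC, TTTCGCGC and TTTGCCGC on both strands, the last 2 having been added after the sequence was seen. One of these 4 forms was found in 2.26% of promoter entries, and TTTCGCGC in 0.323%. Of the 7 entries held for 6 of the 10 genes, Rbl1 was the 1 with a match. That match was to a form added after the sequence was seen, so it was fixed in advance and does not single out Rbl1. The first 2 forms had no match in these entries. The other genes with an entry were Ccnd3, Cdk4, Cdk6, Ccne1 and Rbl2. TGGGAA, the core that the Notch partner RBPJ binds, was also searched on both strands. It was found 48 bases before the start of Rbl2 and 141 before that of Cdk4, and 25.6% of all promoter entries hold it. Beside Cdk4, Cdk6 held a CACGTG, 220 bases before its start.

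Among 12043 genes, the 3 with the pattern most like that of the Rbl1 lead probe set over the 6 tumours were Fastkd3, Ung and Fastkd5, each with a Pearson r of 0.998 or 0.996, where the points share both genotype and array. Ung, a uracil-DNA glycosylase of replicating cells, had 252, 334 and 173 in Notch1f/f tumours against 375, 344 and 370 in Notch1+/+ tumours. Rbl2 was most like Supt20 (r = 0.996), Slc9a9 (0.994) and Pdcd7 (0.992). Ccnd1 was most like Spire2 (0.998), Slc6a9 (0.994), a glycine transporter, and Anks1 (0.990). Spire2 was dim, at 2.5, 1.6 and 4.7 in Notch1f/f tumours against 12.4, 25.0 and 10.0 in Notch1+/+ tumours. Its Notch1f/f values all lay under the filter intensity of 7.60, so it was compared only through its Notch1+/+ values. Slc6a9 had 19.6, 16.1 and 18.7 in Notch1f/f tumours against 45.8, 86.8 and 43.2 in Notch1+/+ tumours, with Notch1+/+ tumour 2 again the highest.

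**Figure D4:**
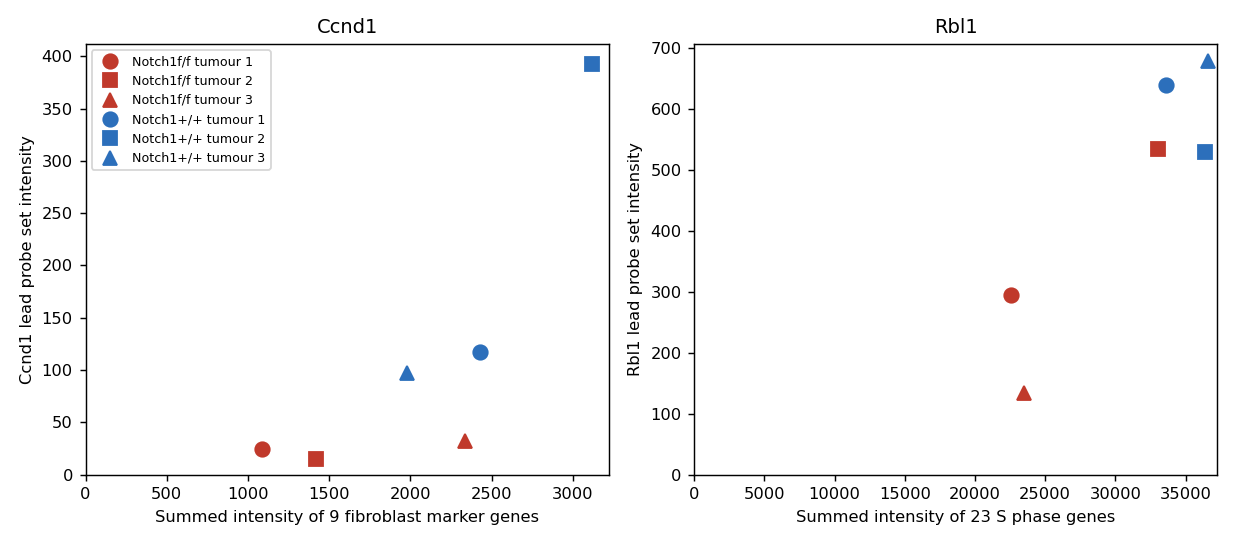
Left, Ccnd1 lead probe set intensity against the summed intensity of 9 fibroblast markers. Right, Rbl1 lead probe set intensity against the summed intensity of 23 S phase genes. Each point is a tumour; Notch1+/+ tumour 2 is highest on both axes at left, and Notch1f/f tumours 1 and 3 are lowest on both axes at right.

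The other genes of the G1 pathway were read through 8 lists, each gene by its lead probe set, and none of the genes on them passed an adjusted p of 0.05 in limma. Over all tested probe sets the median was -0.04. Of 23 S phase genes known as E2F targets, 22 were below 0 and 1 above, with a median of -0.53. Before adjustment 11 of them had p under 0.05, all lower, where 7.6% of all tested probe sets were lower. The groups did not overlap in 11, also all lower, where 10.4% of all were. Cdc6, which loads the replicative helicase, had 241, 425 and 236 in Notch1f/f tumours against 708, 665 and 597 in Notch1+/+ tumours (log2 difference -1.14 ± 0.25, limma adjusted p = 0.202). Tyms, which makes thymidylate, differed by -0.99 ± 0.23, Mcm3, a helicase subunit, by -0.83 ± 0.25, and Slbp, which binds histone mRNA, by -0.62 ± 0.19. The sum over the list was 22581, 33031 and 23520 in Notch1f/f tumours against 33625, 36385 and 36576 in Notch1+/+ tumours. Notch1f/f tumour 2, which was high for Ccne2 and Rbl1, was again next to the Notch1+/+ tumours.

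The factors that connect the pocket proteins to those genes came from 2 lists. Of 10 E2F and DP factors, 3 were above 0 and 7 below, with a median of -0.17. At an unadjusted p under 0.05 there was 1, a count near the background of 13.5% of all tested probe sets. It was E2f1, an activator of S phase genes, at 96.7, 179.7 and 136.7 in Notch1f/f tumours against 265.9, 200.3 and 187.6 in Notch1+/+ tumours (log2 difference -0.63 ± 0.27, limma adjusted p = 0.358). E2f3, another activator, differed by -0.61 ± 0.27, and the dimerisation partners Tfdp1 and Tfdp2 by -0.49 ± 0.28 and 0.34 ± 0.21. Of 8 subunits and partners of the DREAM and MuvB complexes, which repress or activate cell cycle genes, 3 were above 0 and 5 below, with a median of -0.10. Mybl2, a MuvB partner in dividing cells, had 176 ± 28.4 against 253 ± 8.89 (SD, n = 3 each; log2 difference -0.50 ± 0.21, limma adjusted p = 0.356), and Foxm1, Lin52 and Lin37 differed by -0.31 ± 0.27, -0.17 ± 0.33 and 0.41 ± 0.26.

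The inhibitors of the cyclin-dependent kinases were split. Of 8 measured, 3 were above 0 and 5 below, with 2 higher and 3 lower at an unadjusted p under 0.05, against 5.94% higher and 7.6% lower of all tested probe sets. Cdkn1b, the gene of p27, which binds cyclin E-Cdk2, had 1307, 757 and 1153 in Notch1f/f tumours against 338, 296 and 425 in Notch1+/+ tumours (log2 difference 1.54 ± 0.25, limma adjusted p = 0.0981). The INK4 genes, which encode proteins that bind Cdk4 and Cdk6, differed in direction. Cdkn2d had 545, 474 and 588 against 352, 432 and 316 (0.53 ± 0.20). Cdkn2c had 792, 623 and 972 against 772, 504 and 618 (0.33 ± 0.23), with overlapping groups. Cdkn2b had 2.7, 7.3 and 3.7 against 21.6, 16.5 and 17.3 (-0.75 ± 0.18), and Cdkn2a had 6.6, 24.1 and 10.4 against 59.0, 27.7 and 26.8 (-0.85 ± 0.31). The Cdkn2b mean in Notch1f/f tumours, 4.57, lay under the filter intensity of 7.60. Cdkn2b was thus dim and was tested only through its Notch1+/+ values. The median of the list, -0.56, was 0.25 without Notch1+/+ tumour 2 and 0.33 with the filter at the 60th percentile.

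Later cyclins and kinases had a median of -0.29 over 9 tested, 2 above 0 and 7 below. None had an unadjusted p under 0.05 in limma, against 13.5% of all tested probe sets. Cdk2, the partner of the E-type cyclins, had 478 ± 122 in Notch1f/f tumours and 619 ± 146 in Notch1+/+ tumours (SD, n = 3 each), a log2 difference of -0.37 ± 0.26. Cdc25a, the phosphatase that activates Cdk2, differed by -0.56 ± 0.30, Pkmyt1 and Wee1, inhibitory kinases, by -0.43 ± 0.27 and -0.38 ± 0.26, and Cdk1 by -0.29 ± 0.20. The 3 subunits of the Cdk-activating kinase, Cdk7, Ccnh and Mnat1, differed by -0.01, -0.10 and -0.02.

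Of 13 tested genes that control the turnover of these proteins, 6 were above 0 and 7 below, with a median of -0.06. Skp2, the ubiquitin ligase subunit that marks p27 for degradation, was the 1 of 13 at an unadjusted p under 0.05, where the share over all tested probe sets was 13.5%. It had 227, 291 and 167 in Notch1f/f tumours against 282, 574 and 639 in Notch1+/+ tumours (log2 difference -1.02 ± 0.33, limma adjusted p = 0.295). Cul1, Fbxo31 and Usp2 differed by -0.28 ± 0.21, -0.36 ± 0.33 and -0.37 ± 0.29.

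Upstream regulators of the D-type cyclins lay on the other side. Of 18 tested, 12 were above 0 and 6 below, with a median of 0.25, and 6 had an unadjusted p under 0.05, all higher in Notch1f/f tumours, against 5.94% of all tested probe sets. The list holds activators and repressors. Akt1, a kinase that stabilises D-type cyclins, had 858 ± 52.0 in Notch1f/f tumours and 556 ± 87.8 in Notch1+/+ tumours (SD, n = 3 each; log2 difference 0.62 ± 0.19, limma adjusted p = 0.290). Gsk3b, which marks cyclin D1 for degradation, had 475 ± 39.7 against 333 ± 44.8. Foxo1, a repressor of D-type cyclin transcription and activator of Cdkn1b, had 470 ± 59.0 against 268 ± 63.6 (log2 difference 0.79 ± 0.23, limma adjusted p = 0.274). Bcl6, a repressor, had 302 ± 150 against 141 ± 44.3.

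**Figure D5:**
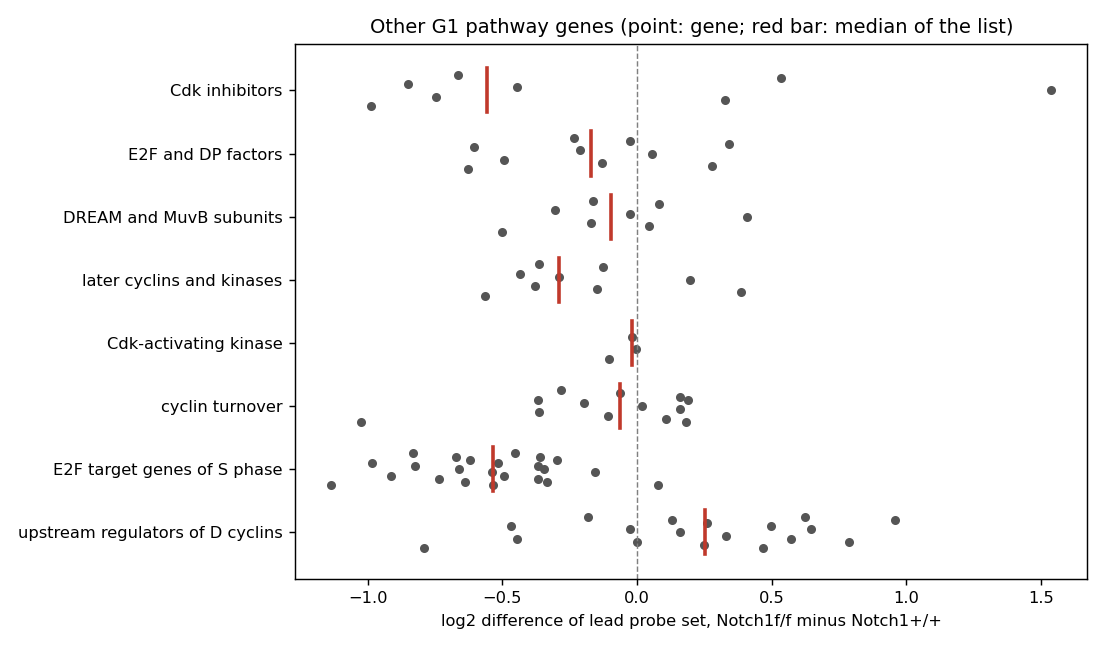
Log2 difference of each tested gene of 8 pathway lists (points), Notch1f/f minus Notch1+/+, with the median of each list as a red bar. S phase genes lie mostly below 0 with a median of -0.53, and upstream regulators of D-type cyclins lie mostly above 0 with a median of 0.25.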

How the data were processed

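The authors deposited 1 linear intensity for each probe set and tumour, made with MAS5 (named in the submitters' processing notes; version not given in the sources used here). They had scaled the arrays alike: the middle 96% of values averaged 100 on each. Detection calls were not used here. Symbols came from the platform's annotation table; RefSeq promoters are of GRCm38.p6.

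Control probe sets (64) and those with a mean log2(intensity + 16) under the 40th percentile (4.56) were left out. The contrast Notch1f/f minus Notch1+/+ was fitted over 27022 probe sets with lmFit and eBayes (trend) in limma 3.58.1 under R 4.3.3, two-sided, with Benjamini-Hochberg adjustment over all of them. The lead probe set of a gene has the highest mean log2 value. Named list genes are the up to 4 with the smallest p in each list, plus Cdkn1b, Cdkn2a, E2f1, Cdk2 and Myc. Cdkn2c was added to complete the INK4 genes. Likeness is Pearson's r for members with a lead p under 0.05. Listed genes without a named probe set are not analysed here. Exact permutation tests used scipy 1.17.1. The fit was tested on simulated data. Members and lists were chosen with earlier results of these data known. The labels give no batch or pairing. The number of arrays limits the precision.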

Additional observations from a re-analysis of the deposited data

How the results depend on the processing

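No member probe set passed an adjusted p of 0.05 under any alternative run, and the lowest value over them was 0.0580, for Ccnd1 1417419_at with array weights. This probe set passed the filter only through its Notch1+/+ values. Its log2 difference was -3.96 with a pseudocount of 1 and -1.21 with 64, and the 3 Ccnd1 probe sets stayed below 0 throughout, between -2.62 and -1.64 with each tumour left out. Over all probe sets, 5 passed in the reported fit, 27 with array weights, 11 with median centring, 3 without a filter, and 2 to 14 with a tumour left out. Member probe sets at an unadjusted p under 0.05 numbered 3 to 10 with a tumour left out, where the share over all probe sets was not taken. With the probe sets of a gene averaged, 1 of the 10 genes had an unadjusted p under 0.05 in limma, against 13.6% of 12043 genes. The sign turned for the results that follow, and the cause was not tested. Among list medians, that of the DREAM and MuvB subunits ranged from -0.23 to 0.07 with a tumour left out and was 0.04 with array weights, that of cyclin turnover ranged from -0.11 to 0.019, and that of the Cdk-activating kinase from -0.23 to 0.04, with 0.025 under median centring. The median of the Cdk inhibitors ranged from -0.69 to 0.25 and was 0.33 with the 60th percentile filter. With a tumour left out, Cdk6 minus Cdk4 ranged from -0.30 to 0.70, Ccnd2 1430127_a_at from -0.12 to 0.51, 1434745_at from -0.16 to 0.31 and 1455956_x_at from -0.23 to 0.36, Ccnd3 1415907_at from -0.51 to 0.13 and 1444323_at from -0.43 to 0.19, Cdk4 1422440_at from -0.67 to 0.12, Cdk6 1455287_at from -0.50 to 0.022, and Rb1 1417850_at from -0.39 to 0.15 and 1444400_at from -0.13 to 0.25. In the same way Cdk7 ranged from -0.23 to 0.17, Lin52 from -0.45 to 0.10 and Mnat1 from -0.25 to 0.19. Ccnd2 1455956_x_at was -0.0043 with a pseudocount of 64. Array weights gave 0.018 for Cdk6 1455287_at, 0.15 for Lin52 and -0.14 for Rb1 1444400_at. Median centring gave 0.040 for Cdk7 and 0.025 for Mnat1, and quantile normalization 0.039 for Mnat1. Averaging its probe sets gave 0.10 for Ccnd3. No paired analysis was possible, because each tumour came from its own mouse and the labels give no pairing. The tumour numbers do not link tumours between groups. Dim probe sets, as those of Ccnd2, have no detection call here.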

Other observations

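Beside Ccnd1, Notch1+/+ tumour 2 also stood apart for Cdkn1c and Cdkn1a. Cdkn1c, the gene of the kinase inhibitor p57, had intensities of 3.1, 15.5 and 24.4 in Notch1f/f tumours against 8.2, 333.0 and 6.4 in Notch1+/+ tumours. Cdkn1a, the gene of p21, had 28.0, 26.2 and 64.3 in Notch1f/f tumours against 15.3, 205.2 and 38.3 in Notch1+/+ tumours. Both were thus high in the tumour with the highest Ccnd1 and Col1a2 values. In the other Notch1+/+ tumours neither gene exceeded its highest Notch1f/f value, unlike Ccnd1. These genes were chosen after their values were seen.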
